A study of Mus musculus with 4 samples.

Results

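Alveolar type I (AT1) cells of the mouse lung were compared between postnatal day 15 (P15) and postnatal day 3 (P3), with 1 single-cell library for each age. A cell was taken as AT1 when its summed level of 8 AT1 markers (Ager, Hopx, Pdpn, Aqp5, Rtkn2, Clic5, Akap5 and Emp2) was at least 0.5 times the median of its own file. This rule kept 2898 of 3149 cells at P3, or 92% (91 to 93), and 2670 of 2940 cells at P15, or 90.8% (89.7 to 91.8). The comparison therefore rests on 5568 of 6089 cells in both files and of 9519 cells in the whole series. Here and below, a range in parentheses after a share or a fold is an exact 95% interval that covers counting error only.

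Both groups came from mice with the genotype Sftpc-CreER; Rosa26-Zsgreen; Hopx-RFP on a mixed FVB and C57BL6 background. All had received 1-2 doses of tamoxifen, which lets the Cre of Sftpc-expressing cells switch on the green reporter. The enzymes used on the lungs of both ages were DNase I, elastase, neutral protease and type I collagenase, and the sort kept cells positive for RFP and Pdpn and negative for GFP and CD45, so AT1 cells without the red Hopx reporter or without surface Pdpn are outside both groups. Libraries of AT1 cells and of alveolar type II (AT2) cells at P60 complete the series. The number of animals per library and their sex are not given in the sources used here.

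AT1 cells are very thin, wide epithelial cells through which oxygen and carbon dioxide pass between air and blood. They secrete basement membrane jointly with the capillary endothelium, carry many caveolae, and send signals such as VEGF to neighbouring vessels. AT2 cells, their cuboidal neighbours, make surfactant. Between P3 and P15 the mouse lung is forming alveoli by septation, and AT1 cells spread over the new surface.

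With 1 library for each age, no difference below has a replicate check and no test was possible. Genes are therefore described by the size of a ratio, with its counting interval. Levels are counts of unique molecular identifiers (UMIs, 1 per captured transcript) summed over the kept cells of a library and scaled to a sum of 1000000 in each library, a unit written CPM. The kept cells held 23451069 UMIs at P3 and 13960421 at P15, with medians of 7325 UMIs (range 3081 to 24285) and 4970 UMIs (1434 to 21046) per cell. A median of 2507 genes was detected per cell at P3 and of 2040 at P15, and 15 cell barcodes occurred in both libraries. Age, library and depth cannot be told apart in this design.

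The libraries differed in sex-linked transcripts. At P3, 1173 of the kept cells, or 40.5%, had a UMI of Xist, the noncoding RNA of the inactive X chromosome, and 662 cells, or 22.8%, had a UMI of at least 1 of the Y-linked genes Ddx3y, Eif2s3y, Kdm5d and Uty. Only 46 cells had both. At P15, 11 cells, or 0.412%, had an Xist UMI and 1213, or 45.4%, a Y-linked UMI. The P3 library thus held cells with Xist and cells with Y-linked transcripts, and the P15 library almost no Xist. Each comparison was also made on the 616 P3 cells and 1207 P15 cells with a Y-linked UMI and no Xist UMI. The value in those cells is given for some of the genes whose ratio differed there.

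Transcripts of other lung cells were also unequal. Kept cells with at least 3 of 20 AT2 markers made up 81.6% at P3 and 29.3% at P15, and the summed level of those markers was 2841 CPM against 817 CPM. For 12 club cell markers the sums were 1104 and 319 CPM. Sums of 15 fibroblast markers were 195 CPM at P3 and 350 CPM at P15, those of 12 pericyte and smooth muscle markers 7.16 and 29 CPM, and those of 20 immune markers 273 and 422 CPM. The 13 ciliated cell markers summed to 1652 and 2480 CPM, almost all of it from Tppp3 (975 and 1439 CPM) and Sec14l3 (644 and 1026 CPM), while kept cells with at least 3 of them made up 21% at P3 and 4.57% at P15. For 15 endothelial markers the sums were 192 and 306 CPM, for 10 mesothelial markers 629 and 564 CPM, and for 9 erythroid and platelet markers 41.8 and 4.51 CPM. The endothelial, immune and mesothelial sums ran against most of their measured members (measured as defined below). Of 12 measured endothelial markers, 10 had a lower level at P15, with a median log2 ratio of P15 over P3 of -0.42. For immune markers it was 9 of 14, with a median of -0.40. Of 3 measured mesothelial markers, 2 had a higher level at P15, with a median of 2.86. Of 9 basal and neuroendocrine markers, none was listed at P15 and 1, Krt15, at P3, where the sum was 2.43 CPM. In the cells that the marker rule left out, AT2 markers summed to 31197 CPM at P3 and 25307 CPM at P15. The part of these transcripts in the results below was not tested, except where the value in cells with fewer than 3 markers of every other type is given (409 cells at P3 and 1638 at P15). Markers were counted at the full depth of each cell, with medians of 7325 UMIs at P3 and 4970 at P15. The shares of cells above and this filter therefore also depend on depth.

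**Figure D1:**
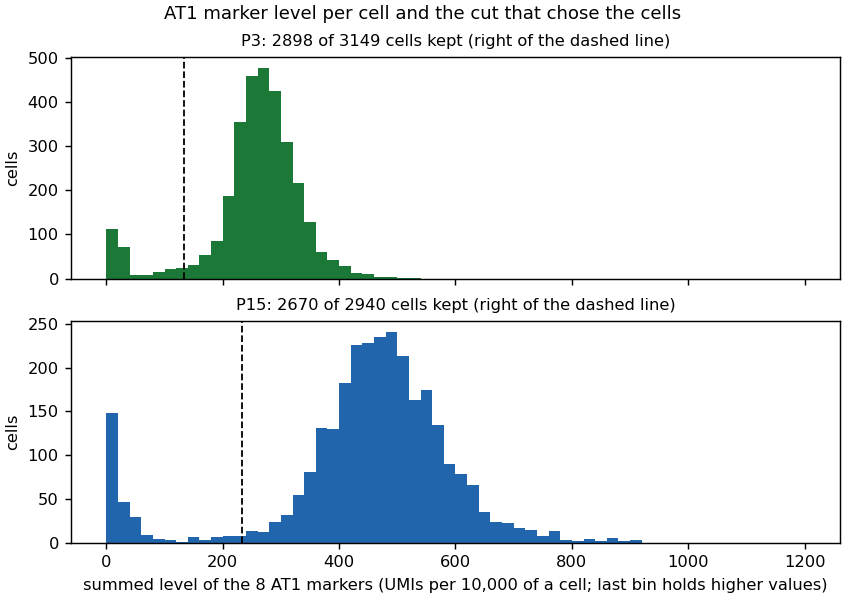
Summed level of the 8 AT1 markers in each cell (x axis, UMIs per 10000 UMIs of the cell) against the number of cells (y axis) at P3 and P15, with the threshold as a dashed line. In both libraries a large peak lies to the right of the threshold (2898 and 2670 cells) and a small peak near 0 to its left.

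The marker rule separated the cells with few borderline cases. Its threshold was 133 UMIs per 10000 at P3 and 233 at P15. The lowest kept cell and the highest cell left out read 134 and 132.2 at P3, and 234.8 and 233.1 at P15. Within 10% of the threshold there were 20 kept cells and 13 left out at P3, and 12 and 9 at P15. The label could be checked on 30 further AT1 genes that the rule did not use. They summed to 22825 CPM in the kept cells at P3 and 33464 CPM at P15, against 1632 CPM in the AT2 library, and 28 of the 30 passed the expression minimum given next. Sec14l3 is a member both of these 30 genes and of the ciliated cell markers above.

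Most genes stayed close to the same level at both ages. Of 12547 genes listed in both files, 3290 had at least 50 CPM and 30 UMIs in the library where they were higher. Among these, 302 genes (9.18%) were past 2-fold upward at P15 and 223 (6.78%) past 2-fold downward, while 2163 (65.7%) lay within 1.5-fold. At least 4-fold differences numbered 46 (1.4%) higher and 57 (1.73%) lower. The genes at least 2-fold lower at P15 held 25.2% of all UMIs at P3 and 8.5% at P15, and those at least 2-fold higher went from 5.29% to 14.2%. The split depends on the total used for scaling. On a reduced total, which leaves out the UMIs of ribosomal protein, mitochondrial genome and haemoglobin genes, every log2 ratio was lower by 0.199, with 207 genes past 2-fold upward and 330 downward. A gene named below as higher by less than 2.3-fold is thus under 2-fold on that total. With a minimum of 20 CPM, 452 of 6027 genes (7.5%) were past 2-fold upward and 352 (5.84%) downward. In the cells with Y-linked and no Xist UMIs the counts were 317 and 228.

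**Figure D2:**
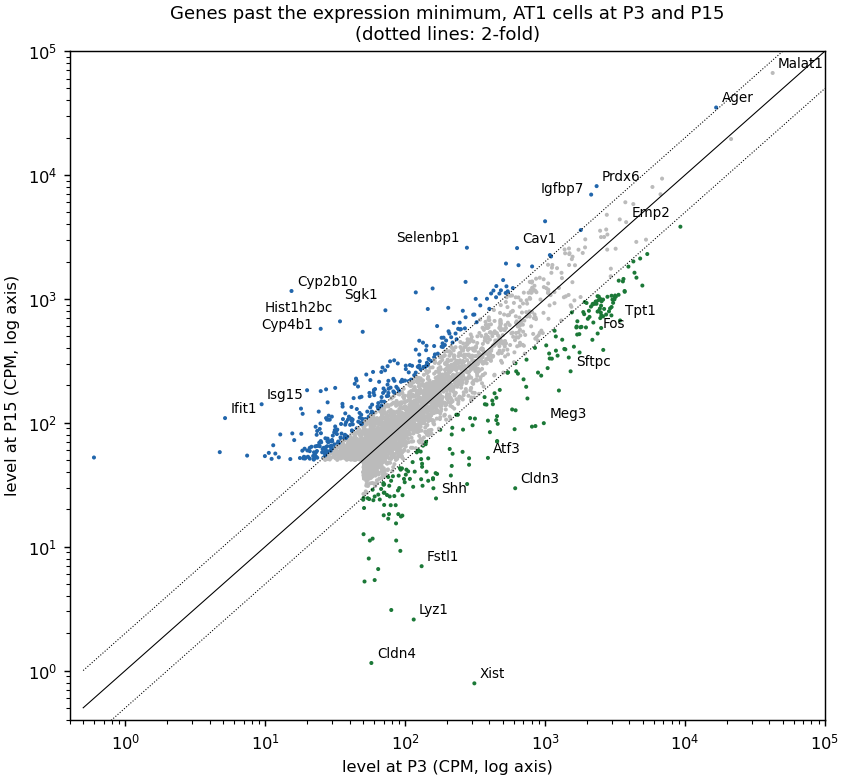
Level of each of the 3290 genes past the expression minimum at P3 (x axis, CPM, log axis) and at P15 (y axis, CPM, log axis), with 1 library for each age. Blue points are the 302 genes at least 2-fold higher at P15, green points the 223 at least 2-fold lower, and the dotted lines mark 2-fold.

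To read groups of genes, 40 lists of known function were followed. A gene of a list was taken as measured if P3 and P15 together gave 30 UMIs, whatever its direction. Of the 11490 such genes, 7.22% were at least 2-fold higher at P15 and 10.1% at least 2-fold lower, with a median log2 ratio of 0.03, and each list is read against these values. Below, a gene counted in a list is called higher or lower at P15 when its ratio reaches 2-fold. The medians of 40 lists ran from -1.54 for ribosomal protein genes to 1.37 for interferon-stimulated genes.

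**Figure D3:**
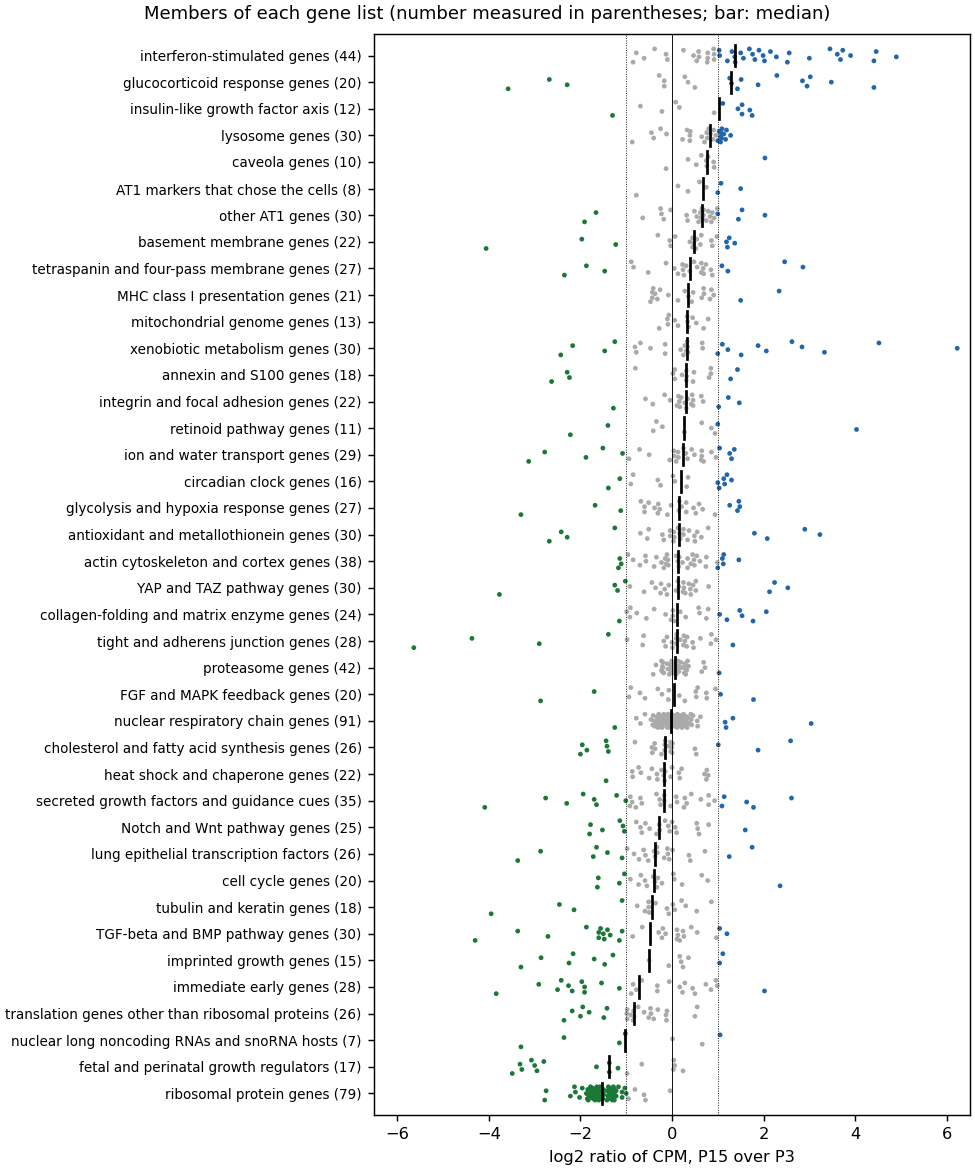
Log2 ratio of P15 over P3 (x axis) of each measured member of the 40 gene lists (rows, number of measured members in parentheses). The black bar is the list's median, the dotted lines mark 2-fold, and interferon-stimulated genes stand at the top and ribosomal protein genes at the bottom.

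AT1 identity genes were read in 2 sets. The 8 markers of the rule are a description only, since they chose the cells. Ager, which encodes a receptor for glycated proteins, was at 16669 CPM at P3 and 35024 CPM at P15. In single cells its level per 10000 UMIs had a median of 168 at P3 and of 341 at P15. From the tenth to the ninetieth percentile it ran from 124 to 218 at P3 and from 242 to 453 at P15. Ager is part of the sum that chose the cells. The lower ends of these ranges therefore depend on the rule's thresholds, 133 at P3 and 233 at P15. Rtkn2 read 501 and 1417 CPM, and Aqp5, a water channel, 1797 and 3590 CPM. Pdpn went from 839 to 1275 CPM, Clic5 from 803 to 1353 CPM and Hopx from 979 to 1244 CPM. Emp2 stood at 3791 and 4159 CPM. Akap5, an anchor protein for protein kinase A, was the exception with 1522 CPM at P3 and 888 CPM at P15.

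The 30 AT1 genes outside the rule had a median log2 ratio of 0.65, with 23 above 0, and 3 were higher and 2 lower. Cav1, the main caveola coat protein, read 630 CPM at P3 and 2569 CPM at P15, 4.08-fold higher (4.00 to 4.16). Its median per cell was 5.81 per 10000 at P3 and 23.9 at P15. Igfbp2, an insulin-like growth factor binding protein, read 645 and 1868 CPM, and Fam189a2 141 and 385 CPM. Krt7, a keratin, was at 1377 and 2503 CPM, and Cldn18, the claudin of alveolar epithelium, ran the other way with 4480 and 2881 CPM. Vegfa, the endothelial growth factor, was at 598 CPM at P3, 927 CPM at P15 and 2172 CPM at P60.

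Regulators of the lung epithelium were less uniform. Of 26 measured transcription factor genes, 2 were higher and 6 lower, with a median of -0.38, and the number lower was 3 in cells with fewer than 3 markers of every other type. Nkx2-1, the lineage factor of lung epithelium, read 407 CPM at P3 and 538 CPM at P15. Foxp2 read 91.6 and 43 CPM, 2.13-fold lower, and was under 2-fold lower (log2 ratio -0.83 against -1.09) in the cells with Y-linked and no Xist UMIs. Id2, an inhibitor of helix-loop-helix factors, read 291 and 109 CPM. Cebpb, a leucine zipper factor, read 6.82 CPM at P3, 22.9 CPM at P15 and 216 CPM at P60.

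Of 17 measured genes of fetal and perinatal growth, 11 were lower and 0 higher, with a median of -1.37. Mycn, a growth-promoting transcription factor, read 60.5 CPM at P3 and 5.37 CPM at P15, 11.3-fold lower (8.93 to 14.4), and was not listed at P60. Hmga2, a chromatin architecture protein of fetal tissue, read 38.2 and 4.94 CPM and was also not listed at P60. Marcks and Marcksl1, membrane-bound actin regulators, read 64.1 and 6.59 CPM and 92.3 and 9.24 CPM. Bex1 was at 41.7 and 5.23 CPM, and Sox4, a progenitor factor, at 211 and 107 CPM, just under 2-fold. Marcks was less far apart, at a log2 ratio of -1.74 against -3.28, when all cells of each file were summed.

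Imprinted growth genes had 7 of 15 measured members lower and 2 higher, with a median of -0.50 that was -0.03 in cells with fewer than 3 markers of other types. Meg3 (chr12:109541001-109571726, plus strand), a maternally expressed noncoding RNA, read 978 CPM at P3 and 99.2 CPM at P15, 9.86-fold lower (9.34 to 10.4). Nnat read 419 and 151 CPM, and Grb10, an adaptor that restrains insulin signalling, 70.7 and 21.7 CPM. Cdkn1c, a cell cycle inhibitor, read 44.7 and 10 CPM, and its log2 ratio of -2.16 was -3.02 without the 10 cells richest in it. Higher at P15 were Igf2r, the clearance receptor for IGF2, at 21.4 and 46.3 CPM (log2 ratio 1.11, or 0.80 with all cells of each file), and Plagl1 at 58.6 and 121 CPM. Genes of the same list that were listed at P3 only include H19, Igf2 and Dlk1.

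Of 20 measured cell cycle genes, 4 were lower and 1 higher, with a median of -0.39, and with all cells of each file 2 were lower. Hmgb2, a chromatin protein of dividing cells, read 94.8 CPM at P3 and 42.8 CPM at P15 (log2 ratio -1.15, or -0.79 with all cells), and Cdk4, a G1 kinase, 124 and 60 CPM. Cdk4 was just under 2-fold lower (log2 ratio -0.97 against -1.04) in the cells with Y-linked and no Xist UMIs. Ccnd2, a D-type cyclin, read 193 and 302 CPM. Hist1h2bc (chr13:23684199-23692908, plus strand), a histone H2B gene, was among the largest differences of all, at 34.2 CPM at P3, 658 CPM at P15 and 763 CPM at P60, or 19.2-fold higher at P15 (17.9 to 20.7).

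Interferon-stimulated genes had the highest median of the 40 lists. Interferons bind receptors whose signal leads a complex with IRF9 to the interferon-stimulated response element in the promoters of antiviral genes. Of 44 measured members, 27 were higher and 0 lower, with a median of 1.37, and the number higher stayed between 25 and 29 under the 17 alternatives. Ifit1, an inhibitor of viral RNA translation, read 5.16 CPM at P3 and 109 CPM at P15, 21.2-fold higher (17.6 to 25.7). Isg15, a ubiquitin-like modifier, read 9.42 and 141 CPM, 14.9-fold higher (13 to 17.2). Ifit3 read 49.7 and 542 CPM, 10.9-fold higher (10.2 to 11.6). In the cells with Y-linked and no Xist UMIs the log2 ratio of Isg15 was 3.27 against 3.90. Ifit3 and its near copy Ifit3b, which read 29.9 and 112 CPM, may have exchanged reads.

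The response element is shown for Isg15, Ifit1 and Ifit3, the members described above, since these are promoters on which that complex is known to act. Stretches come from the RefSeq promoter table of build GRCm38.p6, are read 5′ to 3′ on the strand of the gene, and lie before the gene start used in that table. Capitals mark the letters GAAA, 2 bases of any kind and GAAA, searched on both strands, so that a match on the other strand reads TTTC, 2 bases and TTTC.
Isg15: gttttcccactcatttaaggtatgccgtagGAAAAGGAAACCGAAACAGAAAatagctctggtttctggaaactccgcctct
Ifit1: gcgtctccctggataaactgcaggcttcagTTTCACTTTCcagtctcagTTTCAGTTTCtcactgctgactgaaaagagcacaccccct
Ifit3: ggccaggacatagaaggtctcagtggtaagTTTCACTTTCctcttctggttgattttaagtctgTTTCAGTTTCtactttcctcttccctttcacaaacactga
Ifitm2: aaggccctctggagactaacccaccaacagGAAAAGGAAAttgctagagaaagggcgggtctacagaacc
The Isg15 stretch is chr4:156200845-156200926, minus strand, where overlapping matches form 1 run of capitals. For Ifit1 it is chr19:34640755-34640843 and for Ifit3 chr19:34583343-34583446, both on the plus strand and both with 2 matches. Ifitm2 (chr7:140955968-140956037, minus strand) is shown, after its values were seen, as a member with the letters that was not higher at P15, at 83.7 and 46.3 CPM. The stretch of Ifit3b holds the same letters as that of Ifit3.

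These letters occurred in 15 of the 37 measured interferon-stimulated genes that have a promoter in the table, or 40.5%, against 1079 of 27025 genes in the table, or 3.99%, and 101 of 2529 genes past the expression minimum. Among the list members they occurred in 9 of 21 at least 2-fold higher, or 42.9%, and in 6 of the 16 others, or 37.5%. A match describes the letters in 250 bases before to 50 after a start and is not a measured binding site.

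The pathway's own receptors and factors were followed beside its targets. Receptor genes Ifnar1 and Ifnar2 read 29.5 and 27.4 CPM, and 27.2 and 32.3 CPM. Of the factor genes, Irf9 read 13.1 CPM at P3 and 46.1 CPM at P15. Rtp4, Lgals3bp and Oasl2 read 4.73 and 57.9, 1.83 and 40.4, and 2.64 and 35 CPM. With all cells of each file, the log2 ratio of Lgals3bp was 2.37 against 4.46. Ifi27, a mitochondrial and nuclear membrane protein gene, read 145 and 828 CPM. The cells left out by the marker rule differed in the same direction, with a list sum of 1471 CPM at P3 and 5152 CPM at P15, while the kept cells read 924 and 3119 CPM. At P60 the AT1 sum was 2047 CPM.

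Among 21 genes of antigen presentation on MHC class I, 2 were higher and 0 lower, with a median of 0.36. B2m, the light chain of every class I molecule, read 270 CPM at P3 and 1370 CPM at P15, 5.07-fold higher (4.92 to 5.21), and stayed at 1308 CPM at P60. H2-D1, a heavy chain, read 448 and 1268 CPM. The peptide loading factor Tapbp was at 121 and 215 CPM, and Psmb8, a subunit of the immunoproteasome, at 21.7 and 35.1 CPM. In the cells left out by the rule, B2m read 382 and 1331 CPM.

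Glucocorticoids bind the receptor encoded by Nr3c1, which acts on promoters and enhancers and is known for its role in lung maturation around birth. Of 20 measured genes of the glucocorticoid response, 11 were higher and 3 lower, with a median of 1.28 that was 0.70 in cells with fewer than 3 markers of other types. Sgk1, a kinase that raises sodium channel activity, read 72.2 CPM at P3, 808 CPM at P15 and 230 CPM at P60, 11.2-fold higher at P15 than at P3 (10.6 to 11.8). Tsc22d3, the glucocorticoid-induced leucine zipper, read 157, 1213 and 196 CPM. Klf15 read 18, 130 and 54.9 CPM. All of these were higher at P15 than in either other AT1 library.

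Further members are given with their P60 level where it was listed. Fkbp5, a chaperone of steroid receptors, read 2.69 CPM at P3 and 21.8 CPM at P15, 8.11-fold higher (6.16 to 10.8), and was not listed at P60. Zbtb16 read 4.61, 22.5 and 0.876 CPM, and Per1, a clock gene that also responds to glucocorticoids, 28.2, 69.6 and 21 CPM. In the cells with Y-linked and no Xist UMIs the log2 ratio of Zbtb16 was 1.66 against 2.29. The receptor gene Nr3c1 itself was at 127 and 105 CPM. The metallothionein gene Mt1, a metal-binding member that glucocorticoids also induce, ran the other way, with 89.3 CPM at P3 and 18.3 CPM at P15. In the left-out cells Mt1 read 3893 and 1478 CPM, and the list as a whole 7992 and 6877 CPM.

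The letters of a palindromic glucocorticoid receptor element (G, any base, ACA, 3 bases of any kind, TGT, any base, C), searched on both strands, occurred in 2 of 17 list members with a promoter in the table, or 11.8%, against 145 of 27025 genes, or 0.537%. Both are printed because a member that was higher at P15 and a member that was lower carry them, with the letters in capitals.
Sgk1: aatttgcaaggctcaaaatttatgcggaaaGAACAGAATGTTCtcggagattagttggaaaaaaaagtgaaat
Mt1: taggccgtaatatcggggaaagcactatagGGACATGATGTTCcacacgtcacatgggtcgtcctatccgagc
The stretches are chr10:21993672-21993744 and chr8:94178965-94179037, both on the plus strand of GRCm38.p6 and both before the gene start used in the RefSeq table. For Sgk1 that start lies inside the longer span that GENCODE gives the gene (chr10:21882184-21999903). Glucocorticoid receptors often act at distant sites, which this window does not hold.

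Xenobiotic metabolism gave the largest ratio among genes with at least 100 CPM. Cyp2b10 (chr7:25897620-25926624, plus strand, GRCm38), a cytochrome gene known as a target of the nuclear receptor CAR, read 15.4 CPM at P3, 1157 CPM at P15 and 1725 CPM at P60, which made it 75.1-fold higher at P15 than at P3 (67.7 to 83.6). Cyp4b1, a fatty acid and drug oxidase of the lung, read 24.9, 573 and 1420 CPM. The left-out cells held both at both ages, Cyp2b10 at 142 and 131 CPM and Cyp4b1 at 176 and 276 CPM. When these cells were summed with the others, the log2 ratios were 5.14 against 6.23 and 3.68 against 4.52. Of 30 measured members of the list, 10 were higher and 4 lower, with a median of 0.33. Sult1a1, a sulfotransferase, read 42.8 and 158 CPM, and Fmo5, a flavin monooxygenase, 5.24 and 21.9 CPM. Aldh3b1, an aldehyde dehydrogenase, read 20.8 and 59 CPM, and was under 2-fold (log2 ratio 0.50) with all cells of each file. Cbr2, a carbonyl reductase of club and AT2 cells, was at 75.6 and 16.8 CPM.

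For Cyp2b10 the difference lay in many cells and not in a few. After every cell had been thinned at random to 2000 UMIs, which left out 202 P15 cells and 0 P3 cells as too shallow, Cyp2b10 had a UMI in 2.45% of AT1 cells at P3 and in 67.8% at P15. In the cells left out by the marker rule, the same shares were 21.5% and 18.1%, at median depths of 12010 and 4570 UMIs before thinning. For Hist1h2bc the AT1 shares were 5.38% and 66.9%, against 13.9% and 30.4% in the left-out cells, and for Sgk1 12.4% and 66.9%, against 11.6% and 35%. Bdnf, a neurotrophin gene, had a UMI in 7.07% and 32.3% of AT1 cells and in 0.398% and 3.8% of the left-out cells. Cldn3 went the other way, from 64.5% to 4.09%, with 68.5% and 23.2% in the left-out cells. Among interferon-stimulated genes, the AT1 shares were 0.828% and 16% for Ifit1, 1.79% and 18.6% for Isg15, and 9.01% and 57.1% for Ifit3.

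**Figure D4:**
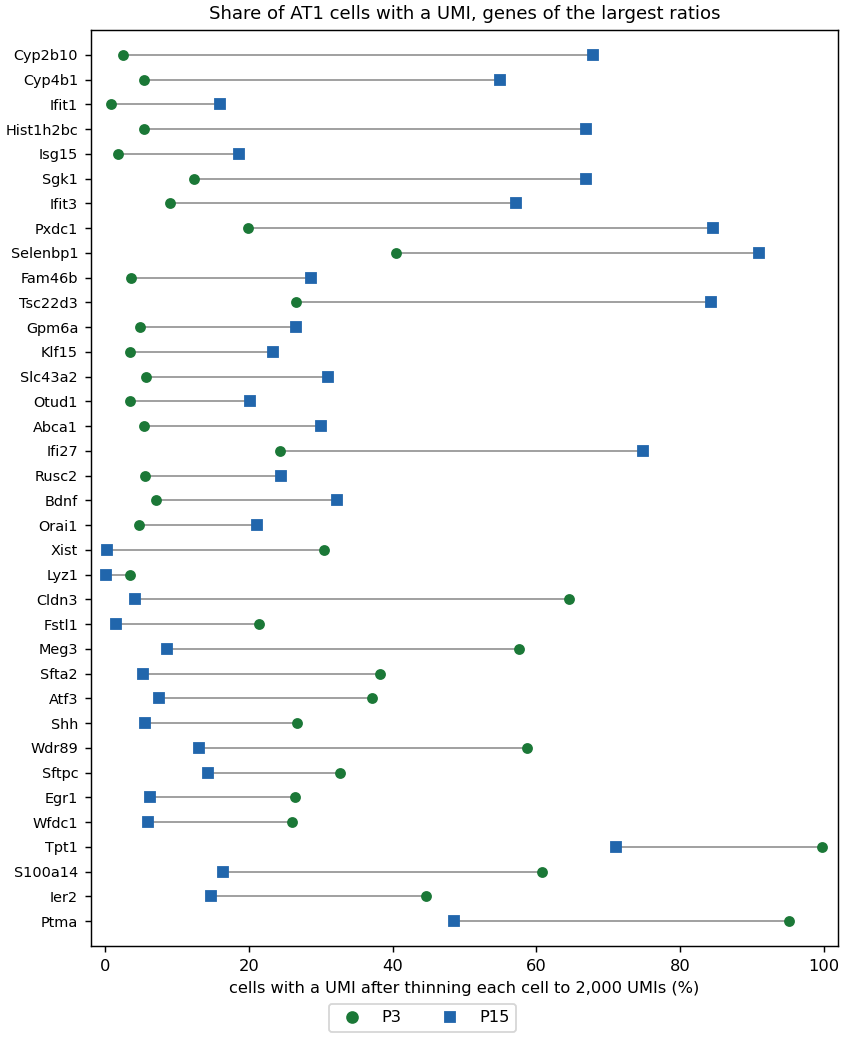
Share of kept AT1 cells with a UMI of each gene after thinning every cell to 2000 UMIs (x axis, percent), at P3 (green circles) and P15 (blue squares), for the genes with the largest ratios in each direction. Cyp2b10 lies at 2.45% and 67.8%, Cldn3 at 64.5% and 4.09%, and Lyz1 under 4% at both ages.

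Other genes with large ratios upward had less in common. Pxdc1 read 119 CPM at P3, 1127 CPM at P15 and 878 CPM at P60, 9.47-fold higher at P15 than at P3 (9.1 to 9.86). Fam46b, a noncanonical poly(A) polymerase gene, read 19.9, 183 and 53 CPM. Gpm6a, a multi-pass membrane glycoprotein gene that is also a mesothelial marker, read 24.9, 180 and 272 CPM, while kept cells with at least 3 mesothelial markers were 0.138% at P3 and 2.43% at P15. Slc43a2, an amino acid transporter, read 27.2 and 186 CPM. Orai1, the pore of store-operated calcium channels, read 24.1 and 123 CPM. Bdnf read 44.5, 227 and 376 CPM. Otud1, a deubiquitinase, and Rusc2 completed this group at 18.5 and 118 CPM and at 27.9 and 146 CPM.

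Of 30 measured antioxidant genes, 4 were higher and 4 lower, against 7.22% and 10.1% of all measured genes. Their median of 0.15 turned to -0.05 on the reduced total. Selenbp1, a selenium-binding methanethiol oxidase, read 276 CPM at P3, 2585 CPM at P15 and 1135 CPM at P60, 9.36-fold higher at P15 (9.12 to 9.62). Prdx6, a peroxiredoxin that also acts on surfactant phospholipids, read 2332, 8124 and 5692 CPM. Prdx4, the peroxiredoxin of the endoplasmic reticulum, was lower, at 93.3 and 17.5 CPM. Gpx1, a glutathione peroxidase, was at 394 and 680 CPM.

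The insulin-like growth factor axis held the third highest list median, 1.02, with 6 of 12 measured members higher and 1 lower. These genes encode binding proteins that hold IGFs, proteases that release them, and receptors. Igfbp7 read 2132 CPM at P3, 6941 CPM at P15 and 3397 CPM at P60. Igfbp6, which prefers IGF2, read 108, 292 and 2686 CPM. Htra1, a secreted serine protease that cleaves binding proteins, read 75.8 and 218 CPM. The receptor gene Igf1r read 240 CPM at P3 and 148 CPM at P15, and Irs1, its docking protein, 15.1 and 28.5 CPM. Igfbp7 is also made by other lung cells, and read 653 and 2557 CPM in those left out.

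Among 35 secreted growth factors and guidance cues, 5 were higher and 8 lower, with a median of -0.17. Shh (chr5:28456815-28467256, minus strand), the hedgehog ligand sent from epithelium to mesenchyme, read 166 CPM at P3, 24.5 CPM at P15 and 26.7 CPM at P60, 6.76-fold lower at P15 (6.05 to 7.57). Fgf18, a ligand for mesenchymal FGF receptors, read 67.3 and 29.2 CPM, and Slit2, a guidance cue, 21.2 and 5.52 CPM. Higher at P15 were the netrin gene Ntn4 at 4.22 and 25.8 CPM, the EGF receptor ligand gene Tgfa at 8.7 and 29.8 CPM, and the semaphorin gene Sema3f at 10.7 and 33 CPM. In the cells with Y-linked and no Xist UMIs the log2 ratio of Slit2 was -1.31 against -1.94 and that of Ntn4 3.45 against 2.61, and that of Tgfa was 1.13 against 1.78 in cells with fewer than 3 markers of other types.

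TGF-beta and BMP pathway genes were lower at P15 in 13 of 30 measured members and higher in 2, at 2-fold, with a median of -0.47. With all cells of each file the number lower was 7 and the median -0.02. The direct BMP targets Id1, Id2 and Id3 read 448 and 159, 291 and 109, and 1068 and 362 CPM. Smad7, the feedback inhibitor of the pathway, read 130 and 50.9 CPM. The receptor genes Tgfbr2 and Bmpr2 were at 109 and 122 CPM and at 58.5 and 69.2 CPM. Ltbp3, which stores latent TGF-beta in the matrix, was higher at P15, at 75.8 and 174 CPM. Fstl1, a secreted BMP antagonist outside the list, read 131 CPM at P3 and 6.95 CPM at P15, 18.9-fold lower (15.4 to 23.4). In the left-out cells Fstl1 read 146 and 222 CPM, so its log2 ratio was -2.30 with all cells against -4.24.

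YAP and TAZ are coactivators that respond to cell spreading and tension. Of 30 measured genes of their pathway, 3 were higher and 4 lower, with a median of 0.14 that was -0.06 on the reduced total. Yap1 read 31.2 CPM at P3 and 34.2 CPM at P15, and Wwtr1, the TAZ gene, 195 and 128 CPM. The higher members were Ankrd1 at 11.4, 65.8 and, at P60, 220 CPM, Nt5e, the surface enzyme that makes adenosine, at 43.6, 206 and 260 CPM, and Fjx1 at 58.9, 257 and 132 CPM. Ctgf, which encodes a matricellular protein, read 375 and 652 CPM. F3, tissue factor, was lower at 736 and 323 CPM, which was under 2-fold (log2 ratio -0.91) in the cells with Y-linked and no Xist UMIs.

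FGF and MAPK feedback genes had 2 of 20 measured members higher and 2 lower, and Notch and Wnt genes 1 of 25 higher and 6 lower, with medians of 0.05 and -0.28. The FGF median turned to -0.15 on the reduced total. Fgfr2 and Egfr, the receptors for FGF7 and FGF10 and for EGF ligands, read 30.5 and 45.1 CPM and 46 and 66.4 CPM. Spry1, a feedback inhibitor, read 208 and 112 CPM, and Dusp6, the phosphatase of ERK, 58.8, 114 and, at P60, 11.5 CPM. Nkd1, a feedback inhibitor of Wnt, read 54 CPM at P3, 24.6 CPM at P15 and 1.75 CPM at P60, and was under 2-fold lower at P15 (log2 ratio -0.72) with all cells of each file. Notch2 read 32.7 and 56.7 CPM. Of 11 measured retinoid pathway genes, 1 was higher and 2 lower, with a median of 0.27 that was -0.03 with all cells of each file; Dhrs3, a retinal reductase, read 33.5 and 64.3 CPM.

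Caveolae are membrane pits that buffer stretch. Of 10 measured caveola genes, 9 were above 0, but only Cav1 reached 2-fold, and the median was 0.76. Cav2 read 430 CPM at P3 and 812 CPM at P15, Sdpr (cavin-2) 563 and 1060 CPM, Ehd2 399 and 672 CPM, and Prkcdbp (cavin-3) 279 and 472 CPM. The list summed to 3009 CPM at P3, 6559 CPM at P15 and 5304 CPM at P60.

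Of 22 measured basement membrane genes, 4 were higher and 3 lower, with a median of 0.49, and 7 were higher in cells with fewer than 3 markers of other types. Higher were the type IV collagen chains Col4a1 (446 and 1030 CPM), Col4a2 (529 and 1262 CPM) and Col4a5 (188 and 486 CPM), and Hspg2, the perlecan gene, at 247 and 566 CPM. Lama3, a laminin chain, read 162 and 320 CPM. At P60 the collagen chains were again lower, with Col4a1 at 524, Col4a2 at 603 and Col4a5 at 188 CPM. Fras1, an extracellular matrix protein of developing epithelium, read 113 CPM at P3, 48.1 CPM at P15 and 9.34 CPM at P60.

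Enzymes that fold, crosslink or remodel matrix had 6 of 24 measured members higher and 1 lower, with a median of 0.11 that was -0.09 on the reduced total and 0.49 with all cells of each file. Timp2, a metalloproteinase inhibitor, read 203 CPM at P3, 846 CPM at P15 and 911 CPM at P60, 4.17-fold higher at P15 (4.04 to 4.32). Plod2, a collagen lysyl hydroxylase, read 88.5, 301 and 249 CPM, and P4ha1, a prolyl hydroxylase, 31.4, 87.2 and 177 CPM. Tgm2, a transglutaminase, read 126 and 289 CPM. Colgalt1, a collagen galactosyltransferase, was lower at 69.9 and 31.6 CPM, but within 2-fold (log2 ratio -0.57) in the cells with Y-linked and no Xist UMIs. Fibroblasts also make matrix genes, and the left-out cells held Timp2 at 91.1 and 583 CPM and Col4a1 at 176 and 300 CPM. In cells with fewer than 3 markers of every other type, fibroblasts included, the log2 ratios were 2.11 against 2.06 for Timp2 and 1.34 against 1.21 for Col4a1.

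Among 22 integrin and focal adhesion genes, 3 were higher and 1 lower, with a median of 0.30. Itga3, the partner of integrin beta-1 on laminin, read 139 and 282 CPM, Tns1, a tensin, 471 and 1103 CPM, and Itgb5 12.3 and 34.2 CPM. Tight and adherens junction genes had 1 of 28 higher and 4 lower, with a median of 0.10 that was -0.10 on the reduced total. The claudin genes Cldn3 (chr5:134986214-134987472, plus strand, GRCm38) and Cldn4 (chr5:134945119-134946934, minus strand) lie close together and were 2 of the 4 lower members. Cldn3 read 611 CPM at P3, 29.6 CPM at P15 and 2.77 CPM at P60, 20.7-fold lower at P15 (18.7 to 22.8), and Cldn4 57.3 and 1.15 CPM, 50-fold lower (30.7 to 87.7). AT2 cells also express Cldn3, and the left-out cells held 1212 and 336 CPM of it. In cells with fewer than 3 markers of other types its log2 ratio was -4.74 against -4.37. Cgn, the cingulin gene of the junction plaque, was higher, at 69.5 and 174 CPM.

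Ion and water transport genes had 4 of 29 measured members higher and 5 lower, with a median of 0.25. Scnn1a, the alpha subunit of the epithelial sodium channel, read 312 CPM at P3 and 747 CPM at P15, and Atp1b1, a subunit of the sodium pump, 344, 885 and, at P60, 223 CPM. Kcne2, a potassium channel subunit, was lower at 95.7 and 26 CPM. Aqp1, a water channel, read 1168 CPM at P3, 553 CPM at P15 and 18.1 CPM at P60. Tetraspanins and similar multi-pass membrane genes had 4 of 27 higher and 3 lower, with a median of 0.39. Mal2, a sorting protein, read 540 and 1150 CPM, and Emp1, a relative of Emp2, 36 and 7.09 CPM. Tm4sf1, which endothelium also expresses, read 8.23, 45.2 and 359 CPM, and its log2 ratio of 2.46 turned to -0.17 when all cells of each file were summed.

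Cytoskeletal genes were read in separate lists for the actin cortex and for tubulins and keratins. Over all measured genes, 7.22% were higher and 10.1% lower. Of 38 actin cortex genes, 4 were higher and 3 lower, with a median of 0.14 (-0.06 on the reduced total, where 1 was higher and 5 lower). Actn1, an actin crosslinker, read 82.3 and 226 CPM, Sptan1, spectrin alpha, 163 and 356 CPM, and Myl12b, a myosin light chain, 522 and 1115 CPM. Actg1, cytoplasmic gamma-actin, read 4775 CPM at P3 and 2116 CPM at P15, and Tmsb10, which binds free actin, 3936, 1820 and, at P60, 165 CPM. Of 18 tubulin and keratin genes, 0 were higher and 4 lower, with a median of -0.43. Tubb2b read 25.4 and 1.65 CPM, and Tubb5 543 and 255 CPM. With all cells of each file, Tubb5 and Tmsb10 were within 2-fold, at log2 ratios of -0.87 and -0.92. Vim, a mesenchymal intermediate filament gene, read 36.1 and 8.17 CPM, and its log2 ratio of -2.14 turned to 0.22 with all cells of each file, where the left-out cells held 457 and 975 CPM.

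Annexin and S100 genes, which bind calcium and membranes, had 2 of 18 higher and 3 lower, with a median of 0.31. Anxa1 read 483 CPM at P3 and 1171 CPM at P15, and Anxa5 411 and 1105 CPM. S100a14 was lower, at 615 CPM at P3, 126 CPM at P15 and 43.2 CPM at P60, 4.87-fold at P15 (4.64 to 5.12). Anxa8 read 38.9 and 6.3 CPM and was not listed at P60.

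Ribosomal protein genes were lower at P15 as a block. All 79 measured members were below 0, 73 of them at least 2-fold, with a median of -1.54. They held 19.5% of the UMIs of the kept cells at P3, 7.06% at P15 and 4.54% at P60. The share in single cells had a median of 19.3% at P3 (quartiles 17.1 and 21.8) and of 6.72% at P15 (5.49 and 8.39). Rpl12 read 1254 and 182 CPM, and Rps12 2601 and 387 CPM. In the cells left out by the marker rule the list summed to 167318 CPM at P3 and 123555 CPM at P15, and in the AT2 library of P60 to 137845 CPM. Rps12-ps3, Rpl10-ps3, Rpl9-ps6 and Rpl13-ps3 were 6.25-fold to 9.06-fold lower, but as near copies of ribosomal protein genes they may hold reads of those genes.

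Of 26 other translation genes measured, 7 were lower and 0 higher, with a median of -0.83. The elongation factor gene Eef1a1 read 4950 CPM at P3, 1280 CPM at P15 and 726 CPM at P60, Tpt1, a growth-linked transcript of the same translational class, 3431, 669 and 534 CPM, and Gnb2l1, the ribosomal scaffold RACK1, 889 and 254 CPM. Ptma, prothymosin alpha, read 1762 and 369 CPM. By contrast, the 91 nuclear respiratory chain genes had a median of -0.02 (0.02 without Malat1 in the total), with 4 higher and 1 lower, and the 13 mitochondrial genome genes had a median of 0.33 with 0 in either direction. The 42 proteasome genes had a median of 0.06, or -0.14 on the reduced total. Of 7 measured nuclear noncoding RNAs and hosts of small nucleolar RNAs, 1 was higher and 4 lower. Their median was -1.02, or -0.62 in cells with fewer than 3 markers of other types. Lower were Meg3, given above, and Epb41l4aos, Kcnq1ot1 and Snhg6, at log2 ratios of -2.36, -1.15 and -1.02. Against the list median, Malat1 read 42244, 66522 and 157762 CPM at P3, P15 and P60, and Neat1 588, 1222 and 2248 CPM. The log2 ratio of Neat1 was 1.05, and 0.73 to 0.89 with all cells, with cells at or above the median of the markers and with Y-linked cells.

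Lysosome genes had 10 of 30 measured members higher and 0 lower, with a median of 0.82. The 10 ratios lay between 2-fold and 2.42-fold, and 1 member was at least 2-fold higher on the reduced total, where the median was 0.62. Ctsa, a protective carboxypeptidase, read 58 and 140 CPM, Psap, the saposin precursor, 171 and 361 CPM, and Grn, progranulin, 161 and 338 CPM. Among 26 cholesterol and fatty acid genes, 3 were higher and 6 lower, with a median of -0.16. Abca1, the exporter of cholesterol, read 31.6 CPM at P3 and 191 CPM at P15, and Scd2, a desaturase, 525 and 1927 CPM. The sterol synthesis genes Sqle, Idi1 and Cyp51 were lower, at 20.1 and 5.16, 22.3 and 6.16, and 20.1 and 7.38 CPM.

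Immediate early genes are induced within minutes by growth factors and stress, including tissue dissociation. Of 28 measured, 11 were lower at P15 and 1 higher, with a median of -0.72, or -0.32 with all cells of each file. Fos read 2372 CPM at P3, 525 CPM at P15 and 107 CPM at P60, and Jun 1605, 411 and 168 CPM. In single cells Fos had a median of 20.6 per 10000 at P3 (1.47 to 50.1 from the tenth to the ninetieth percentile) and of 2.93 at P15 (0 to 12.9), so the central ranges overlapped. Atf3, a stress-response repressor, read 390 and 52 CPM, and Egr1 212 and 37.5 CPM. Klf2, a factor that also responds to flow, was the exception at 68.8 and 279 CPM. In the left-out cells the list summed to 11143 CPM at P3 and 14066 CPM at P15, the other way round than in the kept cells (10691 and 6880 CPM). Without the 25% of cells highest in these genes, 292 of 3283 genes were past 2-fold upward and 225 downward.

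Surfactant and defence genes of AT2 cells appeared among the largest ratios downward. Sftpc, Sfta2 and Lyz1 are members of the AT2 marker list and so are part of the sums given above. The source of these transcripts in the kept cells was not tested. Sftpc read 1520 CPM at P3 and 260 CPM at P15, Sfta2 277 and 32 CPM, and Lyz1, a lysozyme gene, 115 and 2.58 CPM. In the left-out cells Sftpc was at 18816 and 13786 CPM and Lyz1 at 1413 and 406 CPM. Much of the level of these 2 genes in the kept cells came from few cells. The 10 kept cells richest in the gene held 44.8% of Sftpc UMIs at P3 and 60.7% at P15. For Lyz1 these shares were 80.3% and 69.4%, and for Sfta2 3.69% and 12.1%. Without those 10 cells the log2 ratios of Sftpc, Lyz1 and Sfta2 were -3.04, -4.85 and -3.25. In cells with fewer than 3 markers of other types, a filter that uses these genes, the log2 ratio of Sftpc was -0.62 against -2.55 and that of Lyz1 -1.57 against -5.48, while that of Sfta2 was -3.35 against -3.11. Wfdc1, a secreted inhibitor-like protein outside that list, read 159, 29.6 and 7.01 CPM. Xist, at 312 CPM and 0.788 CPM, was the largest ratio downward and goes with the shares of cells with Xist given above.

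**Figure D5:**
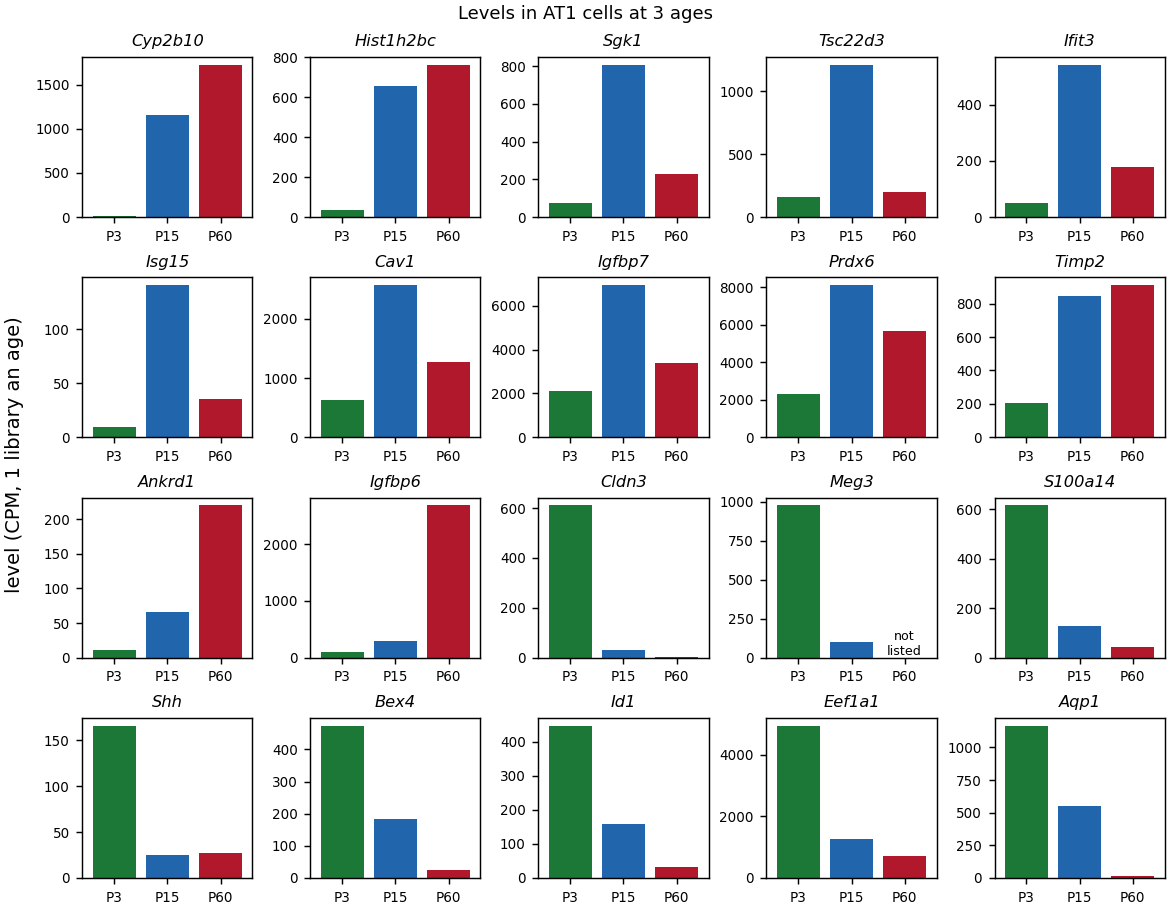
Level in AT1 cells (y axes, CPM, each panel with its own scale from 0) at P3, P15 and P60 for 20 genes named in the text, with 1 library for each age. Sgk1, Tsc22d3 and Isg15 are highest at P15, Cyp2b10 and Ankrd1 at P60, and Cldn3, Shh and Id1 at P3.

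The level at P60, a library outside this comparison, is given side by side for genes higher at P15. Highest at P15 among the 3 AT1 libraries were Sgk1 (72.2, 808 and 230 CPM), Ifit3 (49.7, 542 and 178 CPM) and Cav1 (630, 2569 and 1269 CPM). Highest at P60 were Cyp4b1, Igfbp6 and Ankrd1. Among the genes lower at P15, Bex4 (474, 184 and 24.7 CPM), Id1 (448, 159 and 31.8 CPM) and Aqp1 were lower again at P60, while Shh was at about the same level at P15 and P60 (24.5 and 26.7 CPM).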

How the data were processed

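The deposited files hold natural log values of gene expression per cell: the authors scaled the UMIs of each cell to 10000, added 1 and took the logarithm, as the values show. Cell Ranger 1.3.1, Seurat 2.0.0 and the builds mm10 and hg19 are named per the submitters' processing notes, with no role stated for hg19. Undoing the logarithm and dividing by a cell's smallest value above 0 returned whole UMIs in 100% of cases within a tolerance of 0.05. UMIs of the kept cells were summed per library, scaled to CPM, and compared for genes listed in both files; a gene absent from a file was not taken as 0. In a ratio, 3 counts stood in for a count of 0. No cell was removed by depth or as a doublet, since none was called. Ratios carry exact conditional Poisson intervals and shares Clopper-Pearson intervals, both at 95%. The script was tested on simulated data.

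Named genes are the 8 rule markers, the 20 largest and 20 smallest ratios at 100 CPM with the same direction over all cells and without the 10 cells richest in the gene (no ribosomal protein, mitochondrial, haemoglobin or provisional symbols), up to 6 members per list at 20 CPM, and core receptors and factors. Members of the lists and the comparison itself were chosen with earlier results of these data known. Alternatives on cells, total and minimum numbered 15, and 2 more on the choice of cells (AT2 and club markers not counted, and Y-linked UMIs) were chosen after seeing the data. Promoters come from RefSeq, gene positions from GENCODE on GRCm38. Python 3.11.15, numpy 2.4.6, pandas 2.3.3, scipy 1.17.1 and matplotlib 3.10.9 were used.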

Additional observations from a re-analysis of the deposited data

How the results depend on the processing

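The counts of 302 genes at least 2-fold higher and 223 lower were recomputed under 17 alternatives. They stayed between 207 and 343 higher and between 218 and 330 lower under the choices of cells and of the total, with 272 and 237 by trimmed-mean scaling and 280 and 234 by median-of-ratios scaling. The expression minimum moved them, since it sets how many genes are tested: at 20 CPM 452 were higher and 352 lower, at 100 CPM 193 and 170, and with no minimum beyond 1 UMI in each library 1029 and 1382. Of 264 named genes, 174 were at least 2-fold apart, and of these Tm4sf1 (-0.17) and Vim (0.22) changed sign on the log2 scale, both with all cells of each file, where the cells left out by the marker rule hold both genes. Among these 174, the genes other than Lyz1, Sftpc, Cdkn1c, Tm4sf1 and Xist whose ratio moved by over 1.5 times and that are not given above with that value were, with all cells of each file, Cldn3 at -3.55, Marcksl1 at -2.33, Emp1 at -1.35, Egr1 at -1.70, Nr4a1 at -1.68, Ier2 at -1.61 and Cldn4 at -4.88. In cells with Y-linked and no Xist UMIs they were Ankrd1 at 3.27, Fjx1 at 2.81, Abca1 at 3.19, Rtp4 at 2.95 and Itgb5 at 2.07, and in cells with fewer than 3 markers of other types Mycn at -4.35, Ptn at -3.66, Fkbp5 at 4.25 and Cebpb at 2.35. Without the 10 cells richest in the gene, Tubb2b was at -4.80 and Cldn4 at -7.50. None of these 17 was under 2-fold or changed sign. The cause of these shifts was not tested. Of 40 list medians, 13 were at least 0.5 from 0 and kept their sign under all 17. No paired analysis was possible because each age has 1 library. Leaving out a replicate was not possible for the same reason. Depth limits low genes: 1 UMI is worth less at P3, with 23451069 UMIs, than at P15, with 13960421.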

Other observations

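Some genes outside the lists and the naming rule stood out and are given as values, chosen after they were seen. Gm14964, a gene with a provisional symbol, read 0.597 CPM at P3, 52.4 CPM at P15 and 240 CPM at P60, 87.8-fold higher at P15 than at P3. Of the P3 and P15 files, Cnfn and Psca were listed at P3 only, at 24.4 and 28.9 CPM. In the AT1 library of P60, Psca read 152 CPM and Cnfn was not listed. No gene listed in only 1 of the P3 and P15 files reached 50 CPM. In all, 1445 genes were listed at P3 only and 304 at P15 only.

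Of 16 measured clock genes, 6 were at least 2-fold higher at P15 and 2 lower. Their median log2 ratio was 0.19, and on the reduced total 1 was higher and the median was -0.01. Tef, an output factor of the clock, read 93.2 and 214 CPM, and Cry2, a core repressor, 45 and 90.2 CPM. Glycolysis and hypoxia genes had 4 of 27 higher and 3 lower, with a median of 0.15 (-0.05 on the reduced total): Pfkp, a phosphofructokinase, read 18.7 and 51.6 CPM, and Pkm, pyruvate kinase, 278 and 443 CPM. Of 22 heat shock and chaperone genes, 0 were higher and 1 lower, with a median of -0.17; Hsp90ab1 read 962 and 529 CPM, and Hspb1 128 and 218 CPM.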
